A study of Saccharomyces cerevisiae with 6 samples.

Results

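The 8 genes described here encode the enzymes of the last steps of ethanol fermentation in budding yeast, the pyruvate decarboxylases PDC1, PDC5 and PDC6 and the alcohol dehydrogenases ADH1, ADH2, ADH3, ADH4 and ADH5. They were taken by gene name from the 6316 protein-coding genes in a table of 15753 RNA features, and all 8 were found. J2, an antibody against double-stranded RNA (dsRNA), was used for RNA co-immunoprecipitation with sequencing (RIP-seq), which asks which transcripts are found in double strands. All libraries came from wild-type Saccharomyces cerevisiae (S288C), with no further treatment, grown at 25 °C, from which total RNA was isolated with TRIzol. Per sample, 90 µg of RNA was incubated with 3 µg of J2. The RNA purified from these beads gave the 3 J2 eluate libraries. The supernatant was precipitated again with J2, and what then remained in solution gave the 3 J2 unbound libraries. No library from beads without antibody was analysed here.

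Pyruvate decarboxylase converts pyruvate to acetaldehyde and carbon dioxide, and alcohol dehydrogenase reduces the acetaldehyde to ethanol, which regenerates the NAD+ that glycolysis needs. Both steps are shared among paralogous genes. In glucose-grown cells PDC1 and ADH1 are known as the main genes, PDC5 is best known for its rise when PDC1 is lost, and PDC6 is hardly used. ADH2, repressed by glucose, encodes the enzyme that oxidises ethanol when it is consumed. ADH3 encodes a mitochondrial isozyme, ADH5 a minor cytosolic isozyme, and ADH4 a dehydrogenase of a separate family, the one named for iron-activated enzymes. A dsRNA can form where a transcript of the opposite strand, an antisense RNA (asRNA), pairs with an mRNA, so the features annotated opposite each gene are described with it.

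The coding sequences of the paralogues are close enough for short reads to be shared between them. ADH1 and ADH2 were identical at 88.8% of aligned positions with an identical run of 189 bases, and PDC1 and PDC5 at 87.2% with a run of 65 bases. ADH4 was identical to the other ADH genes at only 46.1% to 47.2% of positions. The 30-base stretches below, read from the R64 reference genome in coding direction, show where the paralogues are most and least alike. In the stretch with the fewest differences, at XV:160373-160402 for ADH1 and XIII:874116-874145 for ADH2 (both on the minus strand), the genes do not differ. In the stretch with the most differences, at XV:159881-159910 and XIII:873624-873653, they differ at 11 positions, shown in capitals.
ADH1, least different: ggtggtcacgaaggtgccggtgtcgttgtc
ADH2, least different: ggtggtcacgaaggtgccggtgtcgttgtc
ADH1, most different: gtCGgTgcTgtTCtAaaggcCacTGacggT
ADH2, most different: gtTAgCgcAgtCGtTaaggcTacCAacggC

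For the PDC genes, capitals mark positions at which the 3 genes are not all alike. The least different stretch, with 2 such positions, lies at XII:233731-233760 (minus strand) in PDC1, XII:411044-411073 (plus strand) in PDC5 and VII:652631-652660 (minus strand) in PDC6. The most different stretch, with 19, lies at XII:233002-233031, XII:411773-411802 and VII:651902-651931 on the same strands.
PDC1, least different: gctaagcaattgttgttgcaCcaCaccttg
PDC5, least different: gctaagcaattgttgttgcaTcaTaccttg
PDC6, least different: gctaagcaattgttgttgcaTcaTaccttg
PDC1, most different: GcTaGaACtccAGCTaAcGCTGCtGTCccA
PDC5, most different: GcTaGaGTtccAATTaCcAAGTCtACTccA
PDC6, most different: AcCaAaACtccCGCAaAcAAAGGtGTAccT

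Reads were 50 bases long and were aligned with up to 2 mismatches. Of the 50-base windows of each transcript, 80.8% in ADH1, 84.6% in ADH2, 91.4% in PDC1 and 92.3% in PDC5 had no copy elsewhere in the genome within 2 mismatches, and nearly all near copies lay in the partner gene of the same pair (for PDC5, 179 of 184 windows). All windows of PDC6, ADH3, ADH4 and ADH5 were free of such copies. How reads with several matches were treated is not given in the sources used here, so counts of ADH2 beside the far more abundant ADH1, and of PDC5 beside PDC1, are uncertain to that extent.

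The read counts of a library summed to between 18645818 (unbound 2) and 43141091 (eluate 1). Values are normalised counts, that is reads divided by a size factor of the library, and fold changes are J2 eluate over J2 unbound on the scale of log2(normalised count + 1). Fold changes were tested with limma over all features, with Benjamini-Hochberg adjustment, for features with a mean above 40. An adjusted p under 0.05 counted as enriched or reduced. Only the relation between the fractions was measured, since the scaling sets the level that counts as no change, and the median mRNA stood at -1.39 on this log2 scale.

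The levels per length separated the genes widely. In J2 unbound RNA, PDC1 held 398674 ± 39523 normalised counts per kb (SD, n = 3) and ranked 2 among all mRNAs, and ADH1 held 241996 ± 13716 and ranked 5. ADH3 followed at 6287 ± 242, ADH4 at 1164 ± 129, ADH5 at 597 ± 49.6 and PDC5 at 316 ± 35.9 normalised counts per kb. ADH2, at 86.4 ± 47, and PDC6, at 16.5 ± 5.01, closed the order. No neighbours in this order overlapped between libraries. The sugar of the medium is not named in the labels or in the study's methods for this experiment. PDC6, ADH2 and ADH4 are known as repressed or hardly used in glucose-grown cells. Of these, ADH2 and PDC6 were low, above only 13.8% and 6.16% of mRNAs. ADH4 was not, as it lay above 66.8% of mRNAs and above ADH5 and PDC5. As RNA came from whole cultures, few cells with many copies and many cells with few copies cannot be told apart.

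In the J2 eluate the order of the leading genes was kept but that of the others was not. PDC1 was at 362456 ± 113145 normalised counts per kb and ranked 1 among mRNAs, while ADH1 was at 30179 ± 2726 and ranked 45. PDC5 moved to the third place of the 8 with 890 ± 107, next to ADH4 with 668 ± 161, and the libraries of this neighbouring pair overlapped. ADH3 fell behind both at 409 ± 67.1, ahead of ADH5 at 109 ± 2.63, ADH2 at 59.6 ± 38.9 and PDC6 at 2.93 ± 1.13.

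**Figure D1:**
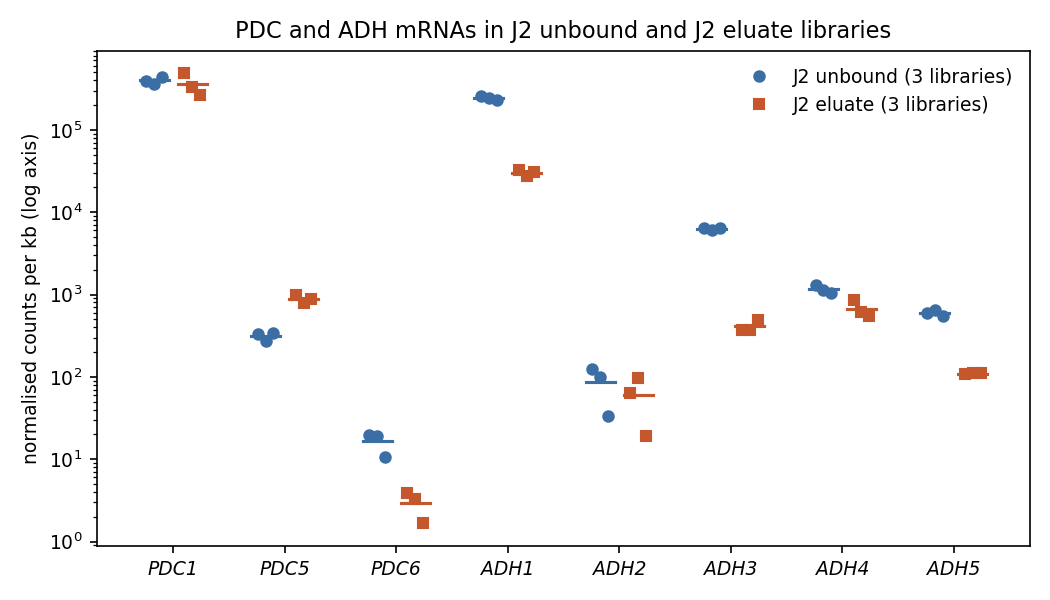
Normalised counts per kb of the 8 mRNAs (log axis) in each of 3 J2 unbound (circles) and 3 J2 eluate (squares) libraries, with horizontal bars at the group means. PDC1 stands at a similar height in both fractions, with means of 398674 and 362456, ADH1, ADH3 and ADH5 lie lower in the eluate, and PDC5 lies higher.

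Of the 7 genes with a mean above 40, 1 was enriched in the J2 eluate (PDC5), 4 were reduced (ADH1, ADH3, ADH4 and ADH5) and 2 were not called (PDC1 and ADH2). Among all 5724 mRNAs above that mean, 8.0% were enriched and 74.4% reduced. The libraries of the 2 fractions did not overlap for the 5 genes called, as for 84.6% of mRNAs. The median fold change of the 7 genes was -0.82. Under total-count scaling 2 members were enriched (PDC1 and PDC5) and 3 reduced, against 21.5% and 48.8% of mRNAs. Under size factors taken from mRNAs alone 3 were enriched (these and ADH4) and 3 reduced, against 32.8% and 37.6% of mRNAs. The fold changes did not order by level, since the 2 main genes stood at -0.18 and -3.01 and the 2 low ones at -0.61 and -2.33.

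PDC1, the main decarboxylase gene (YLR044C, XII:232093-234232, minus strand), was among the most abundant RNAs of both fractions. It held 843554, 773797 and 942136 normalised counts in unbound 1, 2 and 3 and 1042554, 714326 and 570087 in eluate 1, 2 and 3. Eluate 1 lay above all unbound libraries and eluates 2 and 3 lay below them, so the groups overlapped. The fold change was -0.18 (SE 0.457, adjusted p = 0.735, limma), and 82.2% of mRNAs had a lower one. Its direction depended on the scaling and on 1 library: the value was 0.74 (adjusted p = 0.00942) with total-count scaling, 1.14 (adjusted p = 0.0102) with factors from mRNAs alone, both in limma, and 0.02 without eluate 3. Expressed as a share of the summed feature counts, which amounts to total-count scaling, PDC1 took 2.39%, 2.34% and 2.71% of the unbound and 4.92%, 4.25% and 3.37% of the eluate libraries. Every eluate share exceeded every unbound share, by 1.69 times in the mean (exact two-sided permutation test, p = 0.1, the smallest that 3 against 3 can give). The widest 95% Wilson interval, that of eluate 3, ran from 3.36% to 3.38%, so counting error was small beside the spread between libraries.

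PDC5, the decarboxylase paralogue (YLR134W, XII:410280-412704, plus strand), was the enriched member. It held 801, 666 and 829 normalised counts in the unbound and 2411, 1895 and 2168 in the eluate libraries. All eluates lay above all unbound libraries, which held for 8.68% of mRNAs. The fold change was 1.49 (SE 0.171, adjusted p = 3.08e-05, limma), higher than that of 96.7% of mRNAs, and the means differed 2.82-fold. The upstream neighbour CKI1, the choline kinase gene, ends on the base at which PDC5 begins and lies on the same strand. CKI1 moved the other way, at -1.32 (adjusted p = 3.99e-05, limma).

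PDC6, the hardly used decarboxylase gene (YGR087C, VII:650990-653031, minus strand), did not reach the mean of 40. It was counted with 27, 22 and 17 reads in the unbound and 16, 11 and 4 reads in the eluate libraries, that is 40.2, 39 and 21.9 against 7.86, 6.66 and 3.41 normalised counts. All eluates were lower, although the highest of them stood on only 16 reads. In the fit over all features its fold change was -2.33 (SE 0.441, adjusted p = 0.000928, limma). With no filter on the mean, 5 of 8 members were thus reduced, against 68.9% of mRNAs.

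ADH1, the main alcohol dehydrogenase gene (YOL086C, XV:159463-160658, minus strand), was strongly reduced. Its normalised counts were 305119, 290771 and 272393 in the unbound and 38871, 32505 and 36907 in the eluate libraries. The eluates were all lower and close to each other. The mean was 8.02-fold lower in the eluate, with a fold change of -3.01 on the log2 scale (SE 0.259, adjusted p = 4.51e-06, limma), and only 8.65% of mRNAs had a lower value. Its share of all counts fell from 0.842% ± 0.0522 to 0.198% ± 0.0179 (SD, n = 3, exact two-sided permutation test, p = 0.1). The 2 main genes of the pathway, both among the most abundant mRNAs of the unbound fraction, thus stood far apart in the eluate: PDC1 had 2.76, 2.66 and 3.46 times the counts of ADH1 in the unbound libraries and 26.8, 22 and 15.4 times in the eluates. This ratio, chosen after the values were seen, rose by 2.83 on the log2 scale with no overlap (exact two-sided permutation test, p = 0.1).

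ADH3, the gene of the mitochondrial isozyme (YMR083W, XIII:434110-436186, plus strand), fell most among the members. It had 13499, 12512 and 13166 normalised counts in the unbound and 766, 770 and 1010 in the eluate libraries. The fractions were far apart beside the spread within each, with a 15.4-fold lower mean in the eluate and a fold change of -3.95 (SE 0.171, adjusted p = 2.27e-07, limma). Only 1.31% of mRNAs had a lower value.

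ADH5, the gene of the minor cytosolic isozyme (YBR145W, II:533586-535166, plus strand), had 953, 1017 and 861 normalised counts in the unbound and 169, 177 and 174 in the eluate libraries. The eluates were all lower and nearly equal. The fold change was -2.44 (SE 0.166, adjusted p = 1.12e-06, limma), and the mean was 5.45-fold lower.

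ADH4, the gene of the separate dehydrogenase family (YGL256W, VII:14605-16441, plus strand), had 2396, 2087 and 1932 normalised counts in the unbound and 1564, 1112 and 1007 in the eluate libraries. The groups did not overlap, and the fold change was -0.82 (SE 0.199, adjusted p = 0.00409, limma). That is above 67.2% of mRNAs, and the sign held only for some scalings: it was 0.10 (adjusted p = 0.605) with total-count scaling and 0.49 (adjusted p = 0.0313) with factors from mRNAs alone, in limma.

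ADH2, the glucose-repressed gene (YMR303C, XIII:872910-874390, minus strand), was low and variable. It had 185, 149 and 50.3 normalised counts in the unbound and 93.9, 143 and 28.1 in the eluate libraries, on 124, 84 and 39 and on 191, 236 and 33 reads. Replicate 3 was lowest in both fractions and the groups overlapped. The fold change of -0.61 did not pass the test (SE 0.616, adjusted p = 0.384, limma). With the replicate block the adjusted p was 0.0523 in limma, and without eluate 3 the value was 0.05.

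**Figure D2:**
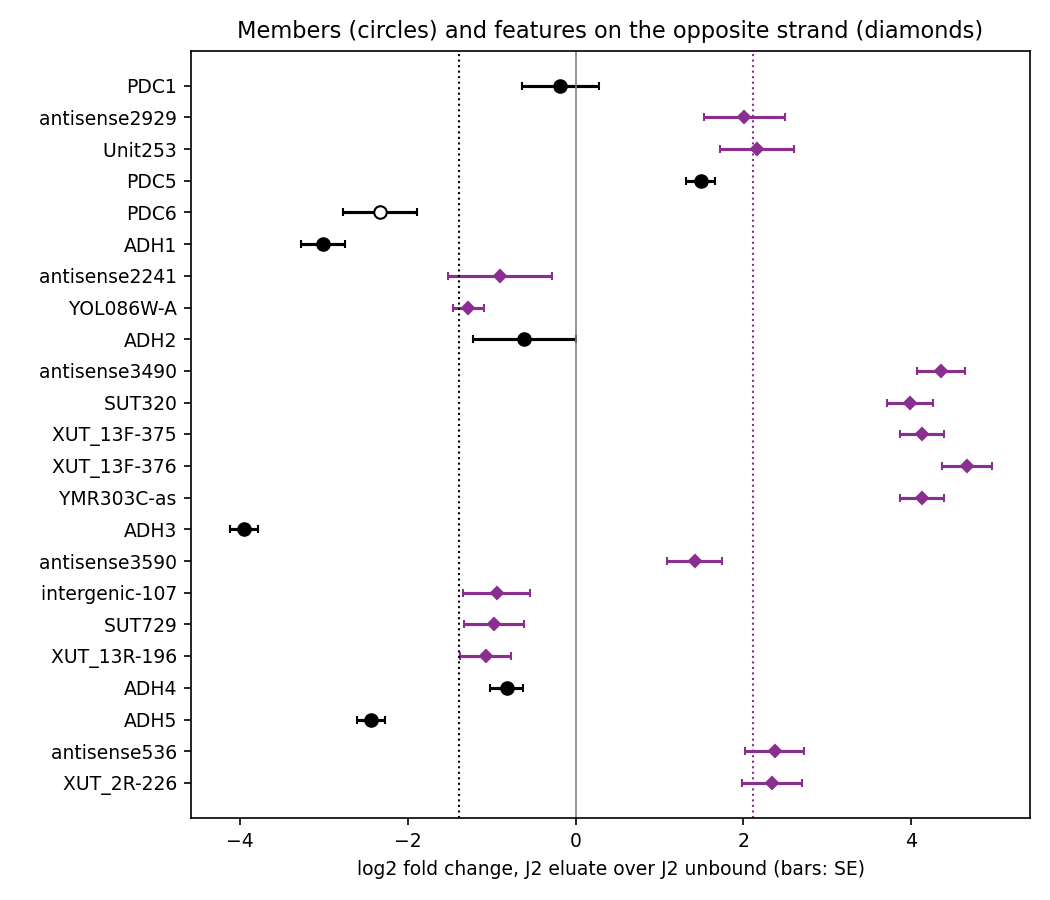
Log2 fold changes of J2 eluate over J2 unbound with their SE for the 8 members (circles, PDC6 open because its mean is under 40) and for the 15 features opposite them with a mean above 40 (diamonds). Dotted lines mark the medians of all mRNAs (black, -1.39) and of all asRNAs (purple, 2.11). The features opposite ADH2, at 3.98 to 4.66, lie farthest to the right.

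Within a library the ratio of a paralogue to its main gene is free of the size factor. The exception is the pseudocount of 1, which was added to normalised counts and weighs most on the low PDC6. All 6 ratios examined differed between the fractions without overlap, each with p = 0.1 (exact two-sided permutation test), so no value adjusted over the 6 could fall below that. PDC5 came to 0.095%, 0.0861% and 0.088% of PDC1 in the unbound and to 0.231%, 0.265% and 0.38% in the eluate libraries, a log2 difference of 1.67. PDC6 moved the other way against PDC1, by -2.15, or by -1.25 with a pseudocount of 10. ADH2 came to 0.0605%, 0.0512% and 0.0185% of ADH1 in the unbound and to 0.242%, 0.44% and 0.0761% in the eluate, a log2 difference of 2.39. Leaving out 1 library moved this to 3.08 without eluate 3 and to 1.83 without eluate 2. Against the strongly reduced ADH1, ADH4 gained 2.19 and ADH5 gained 0.57 on the log2 scale. ADH3 changed by -0.95. These differences carry those of the main genes, ADH1 at -3.01 and PDC1 at -0.18, so that ADH5 gained on ADH1 with a fold change of -2.44 while PDC6 lost on PDC1 with -2.33.

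**Figure D3:**
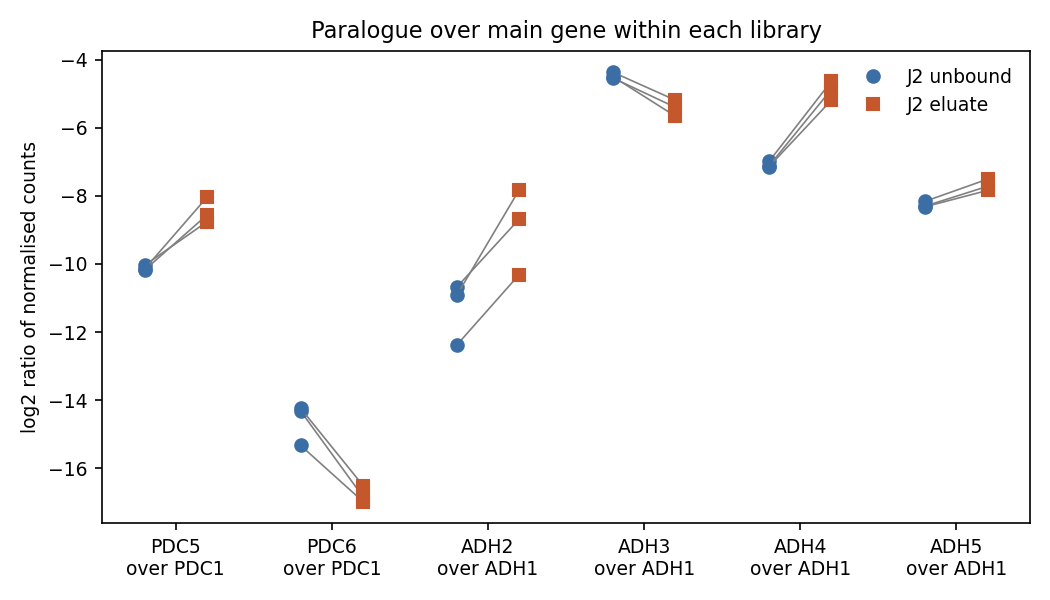
Log2 ratio of normalised counts of each paralogue to the main gene of its family (vertical axis) in J2 unbound (circles) and J2 eluate (squares) libraries, with lines joining libraries of the same replicate number. PDC5, ADH2, ADH4 and ADH5 gain on their main gene in all 3 pairs, and PDC6 and ADH3 lose in all 3.

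Each of the 8 genes has a numbered antisense feature on the other strand. In all, 20 features overlap a member on the opposite strand, and 15 of these had a mean above 40. Of the 12 among them that are long noncoding RNAs (asRNAs, Xrn1-sensitive transcripts named XUT, and stable unannotated transcripts named SUT), 9 were enriched and 2 reduced, against 73.1% and 10.5% of all such RNAs. The others were the mRNA YOL086W-A, reduced as were 74.4% of mRNAs, and the unclassed Unit253, enriched, and intergenic-107, not called. Several of the 15 cover the same bases and share reads, so they are not independent. The enriched antisense536, XUT_2R-226 and antisense3590 passed the filter only through the eluate, with unbound means of 35.7, 31.5 and 20.9. The reduced SUT729 and the uncalled intergenic-107 passed it only through the unbound fraction, with eluate means of 31.6 and 28.7. As a guide to strand assignment, over 281 pairs of abundant mRNAs and their numbered antisense features, the antisense counts had a median of 0.0443%, 0.127% and 0.039% of the sense counts in unbound 1, 2 and 3 and of 0.297%, 0.672% and 0.615% in eluate 1, 2 and 3.

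The antisense transcripts of ADH2 were the most enriched of all features opposite a member. XUT_13F-375 (XIII:872960-873996, plus strand) covers 70% of ADH2, from within the coding sequence past its end. It had 338, 356 and 179 normalised counts in the unbound and 4152, 5231 and 5407 in the eluate libraries. All eluates lay far above, with a fold change of 4.13 (SE 0.262, adjusted p = 7.8e-07, limma), higher than that of 95.1% of long noncoding RNAs. XUT_13F-376 (XIII:874108-874476), which covers the start of ADH2 and does not overlap the former, gave 4.66 (SE 0.296, adjusted p = 7.81e-07, limma). The remaining features there, antisense3490, YMR303C-as and SUT320, overlap these and ranged from 3.98 to 4.35.

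ADH2 was the only member whose antisense transcript outnumbered the mRNA in every library: the counts of XUT_13F-375 were 1.83, 2.39 and 3.56 times those of ADH2 in the unbound and 44.2, 36.6 and 192 times in the eluate libraries. The log2 difference between fractions was 4.75 with no overlap, or 4.01 without eluate 3 (exact two-sided permutation test, p = 0.1, a ratio chosen after the values were seen). Seen from the other strand, the ADH2 mRNA came to 2.26%, 2.73% and 0.52% of XUT_13F-375 in the eluates, against medians of 0.297%, 0.672% and 0.615% on the other strand of abundant mRNAs in the same libraries. The share lay above the median in eluates 1 and 2 and below it in eluate 3. What part of the ADH2 mRNA counts came from reads of the other strand, or from ADH1, was not tested.

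**Figure D4:**
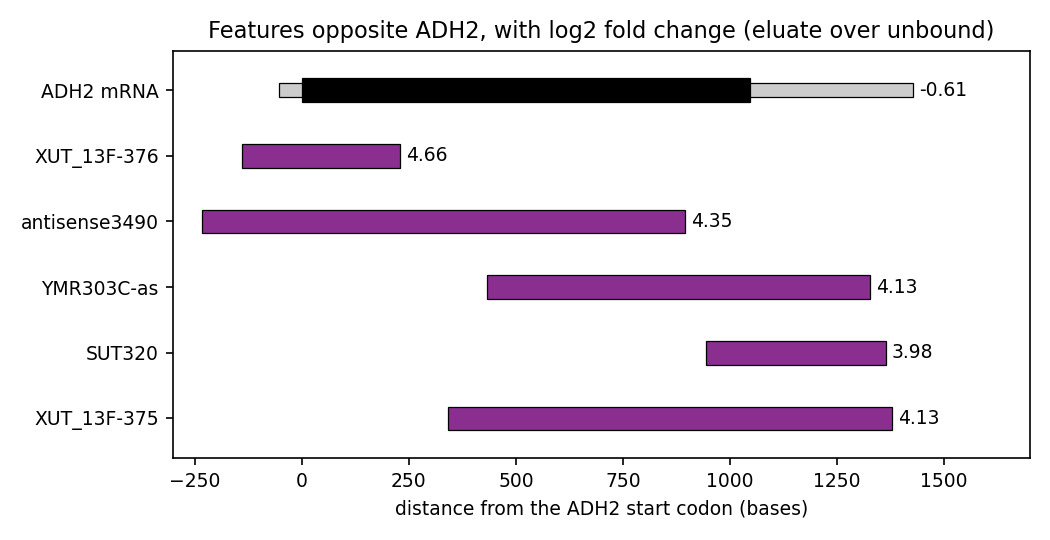
Map of ADH2 (grey, untranslated parts; black, coding sequence of 1047 bases) and the 5 features on the opposite strand (purple) by distance from the ADH2 start codon in bases, with the log2 fold change of each to its right. All 5 features rose, by 3.98 to 4.66, while the ADH2 mRNA stood at -0.61.

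ADH5 combined a reduced mRNA with enriched antisense transcripts. The asRNA antisense536 (II:533649-535520, minus strand) spans 96% of the gene and had 29.8, 28.3 and 49 normalised counts in the unbound and 129, 160 and 293 in the eluate libraries. Its eluates were all higher, with a fold change of 2.37 (SE 0.354, adjusted p = 0.000193, limma), and the overlapping XUT_2R-226 gave 2.34. Both features passed the filter on the mean only through the eluate, with unbound means of 35.7 and 31.5, and they share reads. As the mRNA fell, the counts of antisense536 went from 3.12%, 2.79% and 5.69% to 76.7%, 90.8% and 169% of those of ADH5. These shares lay above the median over the 281 abundant pairs in every library.

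Opposite PDC1 and ADH1 the antisense counts were small beside those of the mRNA. For PDC1, antisense2929 (XII:231874-234232, plus strand) had 167, 593 and 200 normalised counts in the unbound and 650, 1771 and 1133 in the eluate libraries, at a fold change of 2.01 (SE 0.479, adjusted p = 0.00366, limma). The overlapping Unit253 gave 2.16. The counts of antisense2929 came to 0.0198%, 0.0767% and 0.0212% of PDC1 in the unbound and 0.0624%, 0.248% and 0.199% in the eluate, in each library below the median over the 281 abundant pairs. Library 2 was highest in each fraction, as it was for that median, and whether the counts came from antisense transcripts or from PDC1 reads set on the wrong strand was not tested.

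For ADH1, antisense2241 (XV:159695-160658, plus strand) had 46.2, 230 and 61.9 normalised counts in the unbound and 27, 95.7 and 38.3 in the eluate libraries. The groups overlapped, again with library 2 highest in each, and the fold change was -0.90 (SE 0.615, adjusted p = 0.21, limma). With the replicate block it passed the test (adjusted p = 0.0108, limma), and the sign turned to 0.01 with total-count scaling and to 0.40 with factors from mRNAs alone. Of its 50-base windows, 76% had no near copy, the others lying near in sequence to the strand opposite ADH2. The convergent gene YOL086W-A, named MHF1 in RefSeq, overlaps the end of ADH1 by 183 bases and was reduced, at -1.28 (SE 0.185, adjusted p = 0.00015, limma), while it lost its call with total counts (-0.37, adjusted p = 0.14, limma) and its sign turned to 0.03 with factors from mRNAs alone.

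Opposite ADH3, antisense3590 (XIII:434260-436186, minus strand) was enriched at a low level, with 17.9, 23 and 21.9 normalised counts in the unbound and 44.2, 53.3 and 80 in the eluate libraries (fold change 1.42, SE 0.329, adjusted p = 0.00313, limma). Its mean of 40.1 over all libraries passed the filter only through the eluates. The counts of antisense3590 came to 5.77%, 6.92% and 7.93% of ADH3 in the eluates. Features that reach over only the start of ADH3 moved the other way: XUT_13R-196 was reduced at -1.07 (adjusted p = 0.00967, limma), SUT729 at -0.97 (adjusted p = 0.0335, limma), and intergenic-107 stood at -0.94 (adjusted p = 0.0531, or 0.0244 with the replicate block, limma). These 3 share reads, and their signs turned to 0.22, 0.31 and 0.34 with factors from mRNAs alone. With total counts XUT_13R-196 also lost its call (-0.17, adjusted p = 0.612, limma). SUT729 lost its call without unbound 1 (-0.88, adjusted p = 0.0957), unbound 2 (-0.96, 0.0612), eluate 2 (-1.05, 0.0637) or eluate 3 (-0.62, 0.0853) in limma, with TMM factors (-0.81, 0.0785), total counts (-0.08, 0.849) and edgeR (-0.71, 0.107). Intergenic-107 gained a call without eluate 1 (adjusted p = 0.0285, limma) and with a pseudocount of 10 (-0.74, adjusted p = 0.0422, limma).

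The antisense features of the remaining genes had means under 40. Opposite PDC5, the enriched member, antisense3166 had 6, 1 and 3 reads in the unbound and 79, 84 and 36 in the eluate libraries, and rose in the fit over all features by 2.98 (SE 0.512, adjusted p = 0.000488, limma). It still came to only 1.61%, 2.68% and 1.41% of PDC5 in the eluates. Of its 4349 bases, 2425 lie opposite PDC5 and the rest opposite CKI1, so its reads cannot be assigned to PDC5 alone. Among its 50-base windows, 179 had a near copy on the strand opposite PDC1. Opposite PDC6, antisense1839 had 16.4, 14.2 and 25.8 normalised counts in the unbound and 13.8, 16.4 and 103 in the eluate libraries. Eluate 3 stood alone, and the value of 0.64 did not pass the test (adjusted p = 0.41, limma). In the eluates this asRNA had 1.75, 2.45 and 30.2 times the counts of PDC6, whose mRNA was counted with at most 16 reads there. Opposite ADH4, antisense1936 was counted with at most 34 reads in any library and gave 0.78 (adjusted p = 0.244, limma).

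The genes around the fermentation steps were reduced at about the rate of mRNAs at large. Of 36 listed genes 35 had a mean above 40, of which 26 were reduced, 1 was enriched and 8 were not called. Among all mRNAs above that mean, 74.4% were reduced and 8.0% enriched. In the list of the mitochondrial pyruvate carrier and pyruvate dehydrogenase, the competing route for pyruvate, 8 of 10 were reduced with a median of -2.68. These ran from MPC3 at -3.66 (adjusted p = 2.49e-05, limma) to LAT1 at -2.12 (adjusted p = 1.39e-05, limma). MPC3 passed the filter on the mean only through the unbound fraction, with an eluate mean of 9.22. Next to it, MPC2 stood at -3.64 with an eluate mean of 643. The dehydrogenase subunit gene PDX1 stood at -0.03 and the kinase gene PKP2 at -0.34, neither called. Of the other alcohol and butanediol dehydrogenases above the mean, the reduced genes were ADH6 at -3.16 (adjusted p = 5.67e-07, limma), BDH1 at -2.21 and SFA1 at -1.46 (adjusted p = 0.000206, limma), and BDH2 stood at -0.12 without a call.

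Of the 7 genes of aldehyde dehydrogenases and acetyl-CoA synthetases, which carry acetaldehyde on to acetyl-CoA, 5 were reduced, against 74.4% of mRNAs. These ran from ALD4 at -2.68 (adjusted p = 2.81e-05, limma) to ALD6 at -1.10 (adjusted p = 0.00756, limma). The decarboxylase-like THI3, a regulator of thiamine genes, fell by 1.07 on the log2 scale, and ARO10, which decarboxylates 2-keto acids of amino acids, stood at 0.81 without a call (adjusted p = 0.0674, limma). Among 12 regulators 9 were reduced and 1 was enriched, against 74.4% and 8.0% of mRNAs. The reduced ones ran from GCR2, a glycolytic activator, at -3.20 (adjusted p = 4.52e-07, limma) to GIS1 at -0.65 (adjusted p = 0.0349, limma). MET32, a zinc-finger gene of sulfur metabolism, was the enriched gene at 1.32 (adjusted p = 0.000342, limma). CAT8 and ADR1, activators of ADH2, stood at 0.42 and -0.46 without a call.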

How the data were processed

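Total RNA of wild-type yeast was precipitated with J2, and 3 unbound and 3 eluate libraries (TruSeq RNA Sample Prep Kit) were sequenced as single reads of 50 bases. Per the study's methods and the submitters' processing notes, reads were aligned with STAR to sacCer3 and counted with featureCounts (Subread 1.5.0-p1) over Ensembl genes with added untranslated regions, CUTs, SUTs and XUTs. The strand setting and the treatment of reads with several matches are not given in the sources used here. The values the authors deposited are a normalised count signal, that is reads of a feature divided by a DESeq2 1.24.0 size factor (R 3.6.1), on 47860 lines for 15753 features. Columns with the authors' own log2 fold change, p-value and adjusted p-value were deposited too and were not used.

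Repeated lines of a feature were merged. Whole reads were recovered for 100.0% of values in each library (tolerance 0.0051). Size factors ran from 0.565 to 2.03, and a floor of 3 counts corresponds to 1.47 to 5.31 normalised counts. Wilson intervals and the floor cover counting error only, as reads carry no molecular identifiers. limma 3.58.1 (lmFit and eBayes with a trend, R 4.3.3) was fitted to log2(normalised count + 1) over all 15753 features with Benjamini-Hochberg adjustment, and was tested on simulated data. Fold changes on this scale understate the change of low features. Ratios and shares were tested with exact two-sided permutation tests over the 6 libraries. Alternatives were other pseudocounts, other scalings, a fit of features above the mean alone, no filter, DESeq2 1.42.0 and edgeR 4.0.16 on recovered reads, a replicate block and leaving out each library.

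The deviations from the group means of libraries with the same number in the labels correlated (r = 0.23, 0.32 and 0.30), against -0.37 to 0.12 for other pairs, so the numbers were taken to pair the samples. The main limma fit and the permutation tests over the 6 libraries do not use this pairing. A sign permutation test over the 3 pairs gave p = 0.25 for every ratio, the smallest that 3 pairs can give. No library was a copy of another. Replicates 1 and 2 were closer to each other than to replicate 3 in both fractions. The mean squared standardised count difference per feature was 4.88 between unbound 1 and 2, against 59.9 and 65.9 with unbound 3. It was 35.1 between eluate 1 and 2, against 213 and 159 with eluate 3. The labels name no batch. The study's methods state that the experiment was repeated 3 times.

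Coordinates come from the deposited table. Of 5502 protein-coding genes compared, 5497 matched the R64 reference, from which sequences and window copies were read. Genes named are the 8 members, features overlapping them, the listed genes with the largest and smallest called change in each pathway list and those needed for a statement, and the 3 genes with the most similar pattern to ADH1, PDC1 and ADH2. The overlapping features YBR144C, SUT108 and YMR083W-as, with means under 40, were not described. The members and lists were chosen with earlier results of these data known.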

Additional observations from a re-analysis of the deposited data

How the results depend on the processing

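Fold changes kept their direction and their side of the threshold in 110 of 119 alternatives for the members and in 206 of 225 for the features opposite them. The scaling was the choice that moved results most: the median of all features above the mean stood at -0.46 with the deposited factors, 0.45 with total counts and 0.85 with factors from mRNAs alone (mRNA median -1.39, -0.48 and -0.08). Members enriched numbered 2 with total counts and 3 with factors from mRNAs alone, against 1, as mRNAs enriched went from 458 to 1233 and 1877 of 5724, and members reduced numbered 3 under both, against 4, and 5 with no filter on the mean. Signs turned with total counts for PDC1 (0.74), ADH2 (0.29), ADH4 (0.10) and antisense2241 (0.01), and with factors from mRNAs alone for PDC1 (1.14), ADH2 (0.68), ADH4 (0.49), intergenic-107 (0.34), SUT729 (0.31), XUT_13R-196 (0.22), antisense2241 (0.40) and YOL086W-A (0.03). PDC1 was 0.04 in edgeR. Leaving out each library gave 1 member enriched and 4 reduced throughout, with PDC1 from -0.41 to 0.02 and ADH2 from -1.18 to 0.05, the upper values without eluate 3. The replicate block changed no call of a member (ADH2, adjusted p = 0.0523, limma), and beside antisense2241 and intergenic-107 no call of a feature opposite one. The ratios kept their direction in all 72 alternatives, though their p cannot pass the threshold in this design. Depth limits PDC6 and the antisense features of PDC5, PDC6 and ADH4, whose means lie under 40 normalised counts.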

Other observations

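The pattern over the 6 libraries closest to that of PDC1, by the root mean square difference of centred log2 values among mRNAs above the mean, was that of SWI5, a cell-cycle transcription factor (0.0314), followed by VAC8 (0.0499) and HEM15, the ferrochelatase gene (0.0621). The closest to ADH1 were the condensin subunit gene SMC2 (0.0427), the proteasome subunit gene RPN5 (0.0498) and VPS45 (0.0612). The closest to ADH2 were YNL284C-A (0.174), YGR161C-D (0.227) and YNL284C-B (0.228), which are genes of Ty retrotransposons and have many near copies in the genome. Like ADH2 they were lowest in replicate 3 of both fractions. YNL284C-A had 664, 606 and 177 normalised counts in the unbound and 439, 464 and 117 in the eluate libraries.

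The longest stretch of a member mRNA with its exact reverse complement in the same mRNA was between 9 bases (PDC5 and ADH2) and 13 bases (ADH5), with a median of 10 over 5703 nuclear mRNAs. PDC1 had 11 and ADH1 10.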
